A study of Mus musculus with 10 samples.

Results

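10 named genes of the cytoskeleton were followed through mouse liver after an ethanol or maltose gavage: the non-muscle actins Actb and Actg1, the tubulins Tuba1a and Tubb2a, the keratins Krt8 and Krt18, the actin-binding proteins Vcl, Flna and Tpm4, and the transcription factor gene Srf. Each gene was found through the RefSeq accession of its probes, and the 10 genes had 17 of the 41174 probes on the array. The livers came from male C57BL/6N mice with no genetic change named in the labels. Of these, 4 mice received 5 g/kg ethanol, 3 received 7 g/kg ethanol and 3 controls received maltose in an amount isocaloric to 5 g/kg ethanol. The 7 g/kg dose thus had no control of its own calories, untreated mice were not analysed here, and the labels give neither age nor the time between gavage and collection. Each liver was labelled with Cy5 and hybridised with a commercial mixed mouse RNA in Cy3 on its own 2-colour array (the labels name liver as the tissue of this mixed RNA too), so a level below is a log2 ratio of that liver over this common reference RNA. The labels do not say whether arrays of a group come from separate experiments, and p-values measure the spread between arrays.

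Actin polymerises into the filaments that carry the cell cortex, the bile canaliculus and the stress fibres, and tubulin into the microtubules along which hepatocytes move vesicles and lipoproteins. Keratins 8 and 18 pair with each other to form the intermediate filaments of the hepatocyte. SRF is a transcription factor that binds the CArG box and, with MRTF cofactors held back by free actin monomers, drives many genes of the actin cytoskeleton. Actb is also a widely used reference gene for normalising expression.

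Promoters of 9 of the 10 genes were matched in RefSeq (build GRCm38.p6), all except that of Actb. Since SRF and its known targets are among the genes measured, the 250 bases before each start were searched for the CArG box, which reads alike on either strand. It was present in 3 of the 9, against 1.47% of 32851 promoters in the same window. As known SRF targets are among the chosen genes, setting these shares side by side is no test of enrichment. Actg1 and Vcl held 1 match and Srf held 2, and these stretches are shown 5′ to 3′ with the matches in capitals.
Actg1, chr11:120348496-120348745, minus strand: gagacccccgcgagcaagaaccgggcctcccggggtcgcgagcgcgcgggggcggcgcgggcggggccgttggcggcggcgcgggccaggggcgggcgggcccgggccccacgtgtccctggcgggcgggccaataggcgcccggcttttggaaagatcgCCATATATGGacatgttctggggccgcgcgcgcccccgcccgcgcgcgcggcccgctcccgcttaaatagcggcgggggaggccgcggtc
Srf, chr17:46556163-46556412, minus strand: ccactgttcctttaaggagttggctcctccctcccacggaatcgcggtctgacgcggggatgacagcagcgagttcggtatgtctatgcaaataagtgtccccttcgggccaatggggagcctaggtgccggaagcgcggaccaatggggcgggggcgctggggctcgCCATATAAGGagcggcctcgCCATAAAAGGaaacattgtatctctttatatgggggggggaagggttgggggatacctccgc
Vcl, chr14:20929148-20929397, plus strand: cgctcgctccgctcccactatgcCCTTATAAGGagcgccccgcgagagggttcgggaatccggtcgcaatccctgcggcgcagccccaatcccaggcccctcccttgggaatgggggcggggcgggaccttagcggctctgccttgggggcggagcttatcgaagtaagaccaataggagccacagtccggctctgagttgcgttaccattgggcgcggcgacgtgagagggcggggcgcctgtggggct
The match lay 90 to 81 bases before the start in Actg1, 82 to 73 and 62 to 53 bases before it in Srf, and 227 to 218 bases before it in Vcl. The other 6 promoters, those of Tuba1a, Tubb2a, Krt8, Krt18, Flna and Tpm4, held no CArG box in this window. The motif GGGCGG, searched on either strand and not overlapping any CArG match, was present in 7 of the 9 and in 32.7% of all promoters.

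The arrays were read on 4 slides, none of which held 1 group alone. The median Cy5 intensity was 121 to 219 units over a local background of 21 to 24 units, 67.3% to 86.2% of spots stood well above background per array, and no spot was saturated. The number of arrays limits the precision. All 8 hepatocyte markers on the array (among them Alb, Ttr and Hnf4a) stood well above background on all 10 arrays. Of the 26124 genes tested, 15112 had a symbol, and the others are entries counted under the name the array gives them. Over all 26124, 582 were higher and 410 lower at 5 g/kg against maltose, and 1218 were higher and 1137 lower at 7 g/kg. With median centring in place of loess these splits were 664 and 217, and 1334 and 657.

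9 of the 10 genes stood well above background on all 10 arrays, and Tuba1a on 2. Krt18 lost 3 of its 10 spots to outlier marks, which left 1 array at 7 g/kg, and Tuba1a was too dim, so 8 of the 10 genes were tested. At 5 g/kg, 4 of the 8 rose against maltose and none fell, where 3.80% of all genes tested passed, 2.23% higher and 1.57% lower. At 7 g/kg the count was again 4 higher and none lower, where 9.01% of all genes passed, 4.66% higher and 4.35% lower. They were Actb, Actg1, Tubb2a and Tpm4 at either dose. The median log2 change of the 8 genes was 0.58 at 5 g/kg and 0.49 at 7 g/kg, against 0.00 and 0.01 over all genes. The arrays of ethanol and maltose did not overlap, with ethanol higher, for 5 of the 8 genes at 5 g/kg and for 8 of 8 at 7 g/kg. Of all genes, 9.29% were so separated with 5 g/kg higher and 7.65% with 5 g/kg lower, and 13.1% with 7 g/kg higher and 12.3% with 7 g/kg lower. The comparisons of either dose with maltose share the 3 control arrays. The 10 genes were chosen with earlier results of these data known, so setting them beside all genes is no test of the group. In whole liver, a change in RNA per cell and a change in the share of cells that carry it cannot be told apart.

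**Figure D1:**
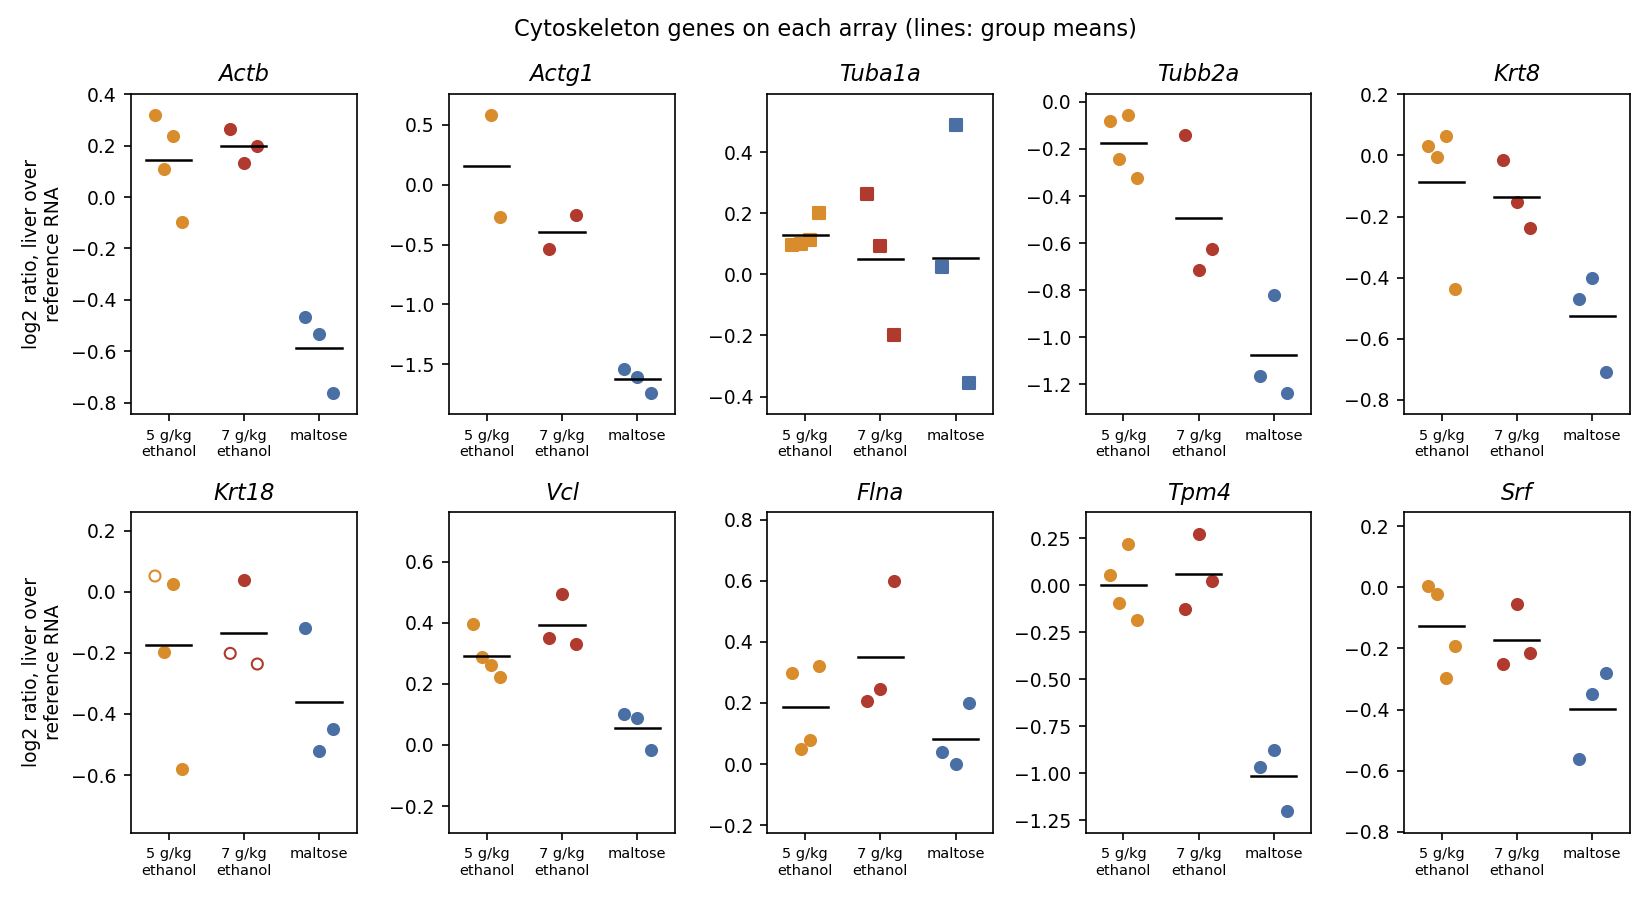
Log2 ratio of liver over reference RNA (vertical axes, each with its own range) for the 10 genes on each array, with points for arrays and lines for group means. Actb, Actg1, Tubb2a and Tpm4, and also Vcl, which did not pass, show no overlap of either ethanol dose with maltose. Open circles for Krt18 are spots marked as outliers, and squares for Tuba1a mark a probe too dim to test.

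Actb, the main non-muscle actin gene, was higher at both doses. Its log2 ratios were 0.32, 0.11, 0.24 and −0.10 at 5 g/kg, with 0.26, 0.13 and 0.20 at 7 g/kg, against −0.47, −0.53 and −0.76 in maltose livers. All 7 ethanol livers thus lay above all 3 maltose livers, and the ethanol groups overlapped each other. The change was 1.66-fold at 5 g/kg (log2 0.73, SE 0.116, adjusted p = 0.00268, n = 4 and 3) and 1.72-fold at 7 g/kg (log2 0.78, SE 0.125, adjusted p = 0.00107, n = 3 and 3), by limma with Benjamini-Hochberg adjustment over all genes. On the slides that held both groups, Actb was higher in ethanol livers by 0.64 to 0.79 at 5 g/kg (3 slides) and by 0.80 to 0.96 at 7 g/kg (2 slides).

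Actb is printed in 10 spots on each array, which gives its measurement error within an array. The SD over the 8 to 10 spots used was 0.04 to 0.10, with a median of 0.05. Between livers of 1 group the SD was 0.18 at 5 g/kg, 0.07 at 7 g/kg and 0.16 in maltose. The rise of 0.73 to 0.78 was larger than the spread between spots and between livers.

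**Figure D2:**
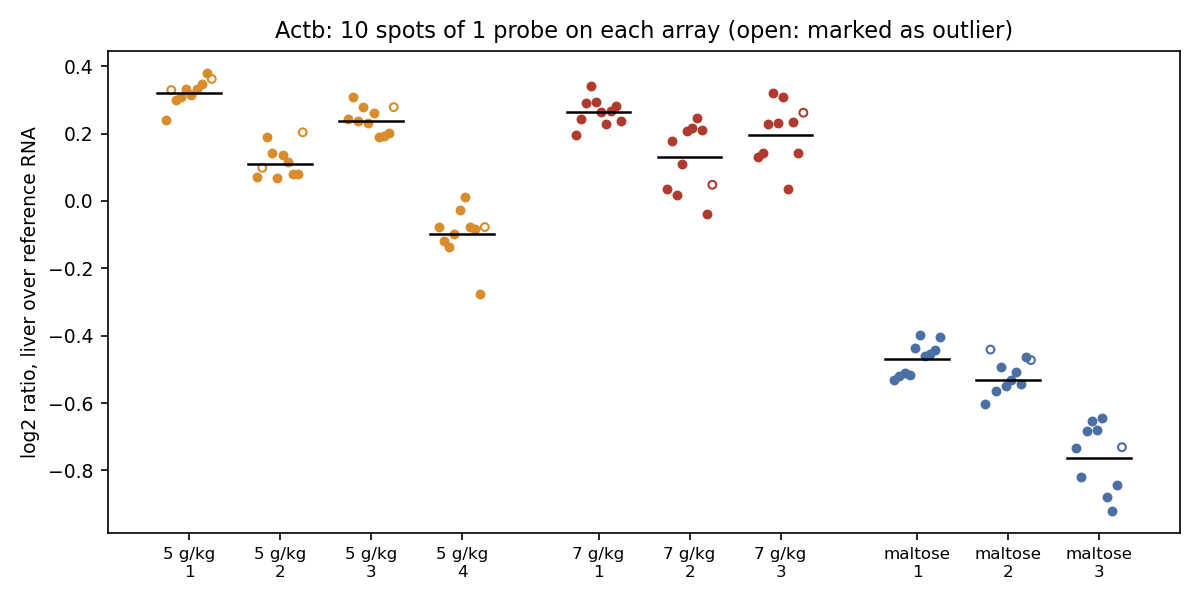
Log2 ratio of liver over reference RNA (vertical axis) of the 10 Actb spots on each of the 10 arrays (horizontal axis), with lines at the mean of the spots used and open circles for the 11 of 100 spots marked as outliers. The spots used on all 7 ethanol arrays lie above those of the 3 maltose arrays.

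Actg1, which encodes the other non-muscle actin, rose at both doses, and by more than the other 7 genes in these fits. At 7 g/kg Tpm4 had the larger change with the scanner ratio (1.38) and with Cy5 alone (1.26, against 0.99 for Actg1). On its brighter probe 2 livers at 5 g/kg read 0.58 and −0.27 and 2 at 7 g/kg read −0.54 and −0.26, against −1.54, −1.61 and −1.74 in maltose livers. The spots of 2 livers at 5 g/kg and 1 at 7 g/kg were marked as outliers and dropped from the fit. It rose 3.45-fold at 5 g/kg (log2 1.78, SE 0.211, adjusted p = 0.00088, n = 2 and 3) and 2.35-fold at 7 g/kg (log2 1.23, SE 0.211, adjusted p = 0.00353, n = 2 and 3). With the marked spots kept, the changes were 1.92 at 5 g/kg and 1.46 at 7 g/kg.

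The second Actg1 probe kept all arrays. It read 0.93, 0.44, 1.29 and 0.24 at 5 g/kg, with −0.30, 0.93 and 0.09 at 7 g/kg, against −0.63, −1.41 and −1.36 in maltose livers. The ethanol arrays again lay above every maltose array, with a wider spread within groups (SD 0.48, 0.63 and 0.44). The change on this probe was 1.86 at 5 g/kg (SE 0.285, adjusted p = 0.00193) and 1.37 at 7 g/kg (SE 0.305, adjusted p = 0.00978), adjusted over all probes tested. Actb and Actg1 encode near-identical proteins and have many pseudogene copies. Their probes may share signal, which was not checked. The muscle actin genes Acta1, Acta2, Actc1 and Actg2 were all tested and none passed at either dose, with changes of −0.27 to 0.36 at 5 g/kg and −0.20 to 0.23 at 7 g/kg.

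Tpm4, a non-muscle tropomyosin that winds along the actin filament, rose at both doses. Its log2 ratios were 0.06, −0.09, 0.22 and −0.18 at 5 g/kg, with −0.13, 0.27 and 0.02 at 7 g/kg, against −0.97, −0.88 and −1.20 in maltose livers. The lowest ethanol liver stood well above the highest maltose liver. The rise was 2.02-fold at 5 g/kg (log2 1.01, SE 0.129, adjusted p = 0.000524) and 2.10-fold at 7 g/kg (log2 1.07, SE 0.138, adjusted p = 0.000203). Its 1 probe read only 91 to 263 Cy5 units in maltose livers, and the size of the rise depended on the processing. With a normexp offset of 16 the rise was 1.16 at 5 g/kg and 1.22 at 7 g/kg. Over the alternatives that kept all arrays, the rise was 0.94 to 1.30 at 5 g/kg and 1.01 to 1.38 at 7 g/kg. Within slides it was 0.78 to 1.02 at 5 g/kg and 0.75 to 1.23 at 7 g/kg. Of the 13 other tropomyosin, myosin and calponin-type genes tested, Myh9, the non-muscle myosin heavy chain gene, rose at 5 g/kg (0.57, adjusted p = 0.00378) and at 7 g/kg (0.74, adjusted p = 0.000358), and Tpm1 rose at 7 g/kg (0.44, adjusted p = 0.0172). None of the 13 fell.

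The adhesion and cross-linking members changed less. Vcl encodes vinculin, which links actin to integrin and cadherin adhesions. Its log2 ratios were 0.40, 0.29, 0.26 and 0.22 at 5 g/kg, with 0.35, 0.49 and 0.33 at 7 g/kg, against 0.10, 0.09 and −0.02 in maltose livers. The groups did not overlap, but the differences of 0.23 (95% interval 0.03 to 0.44, adjusted p = 0.227) and 0.33 (0.12 to 0.55, adjusted p = 0.0527) did not pass. The dimmer Vcl probe gave 0.18 at 5 g/kg and −0.07 at 7 g/kg, so the direction at 7 g/kg rests on the probe.

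Flna encodes filamin A, which joins actin filaments into networks. It ran from 0.05 to 0.32 at 5 g/kg and from 0.21 to 0.60 at 7 g/kg, against 0.00 to 0.20 in maltose livers. Neither difference passed (0.11, interval −0.15 to 0.36, adjusted p = 0.758, and 0.27, interval −0.01 to 0.54, adjusted p = 0.26), and its 3 probes gave 0.11 to 0.30 at 5 g/kg and 0.21 to 0.27 at 7 g/kg. Among 17 other cross-linking and adhesion genes, 1 rose and 1 fell at 5 g/kg, and 3 rose and 2 fell at 7 g/kg. Pdlim1, an actinin-binding adaptor, rose by 0.68 at 5 g/kg and 0.85 at 7 g/kg, and Parva, a partner of integrin-linked kinase, rose by 0.52 at 7 g/kg. Rdx, which encodes radixin of the canalicular membrane, fell by 0.53 at 5 g/kg and by 0.84 at 7 g/kg. Ezr (0.46) and Tln2 (−0.46) completed the calls at 7 g/kg and were named after their values were seen.

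Of 25 genes of actin filament assembly and turnover (cofilins, profilins, thymosins, the Arp2/3 complex and capping proteins), 1 rose at each dose and none fell. This was Arpc1b, an Arp2/3 subunit, at 0.50 for 5 g/kg (adjusted p = 0.0125) and 1.25 for 7 g/kg (adjusted p = 8.70e-06). The difference between the doses also passed for it (0.74, adjusted p = 0.00157). The median change of these 25 genes was 0.02 at 5 g/kg and 0.02 at 7 g/kg, close to that of all genes.

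Srf itself did not pass. It ran from −0.30 to 0.01 at 5 g/kg and from −0.25 to −0.05 at 7 g/kg, against −0.56 to −0.28 in maltose livers, so that the 5 g/kg and maltose groups overlapped. The differences were 0.27 (interval 0.03 to 0.51, adjusted p = 0.242) and 0.22 (interval −0.03 to 0.48, adjusted p = 0.331). Of 16 other genes of the SRF axis, cofactors and known targets included, 1 rose at 5 g/kg, 3 rose at 7 g/kg and none fell. The immediate early genes Egr1 (3.23, adjusted p = 4.77e-05), Junb (1.32) and Ier2 (0.93) made up the calls at 7 g/kg, and Egr1 the one at 5 g/kg (1.26, adjusted p = 0.043). Each of these 3 was also higher at 7 than at 5 g/kg, by 1.97, 0.96 and 0.68 (adjusted p = 0.00579, 0.0164 and 0.0275). Among the genes whose promoters are printed above, Actg1 passed, while Srf and Vcl, which also carry a CArG box, did not.

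**Figure D3:**
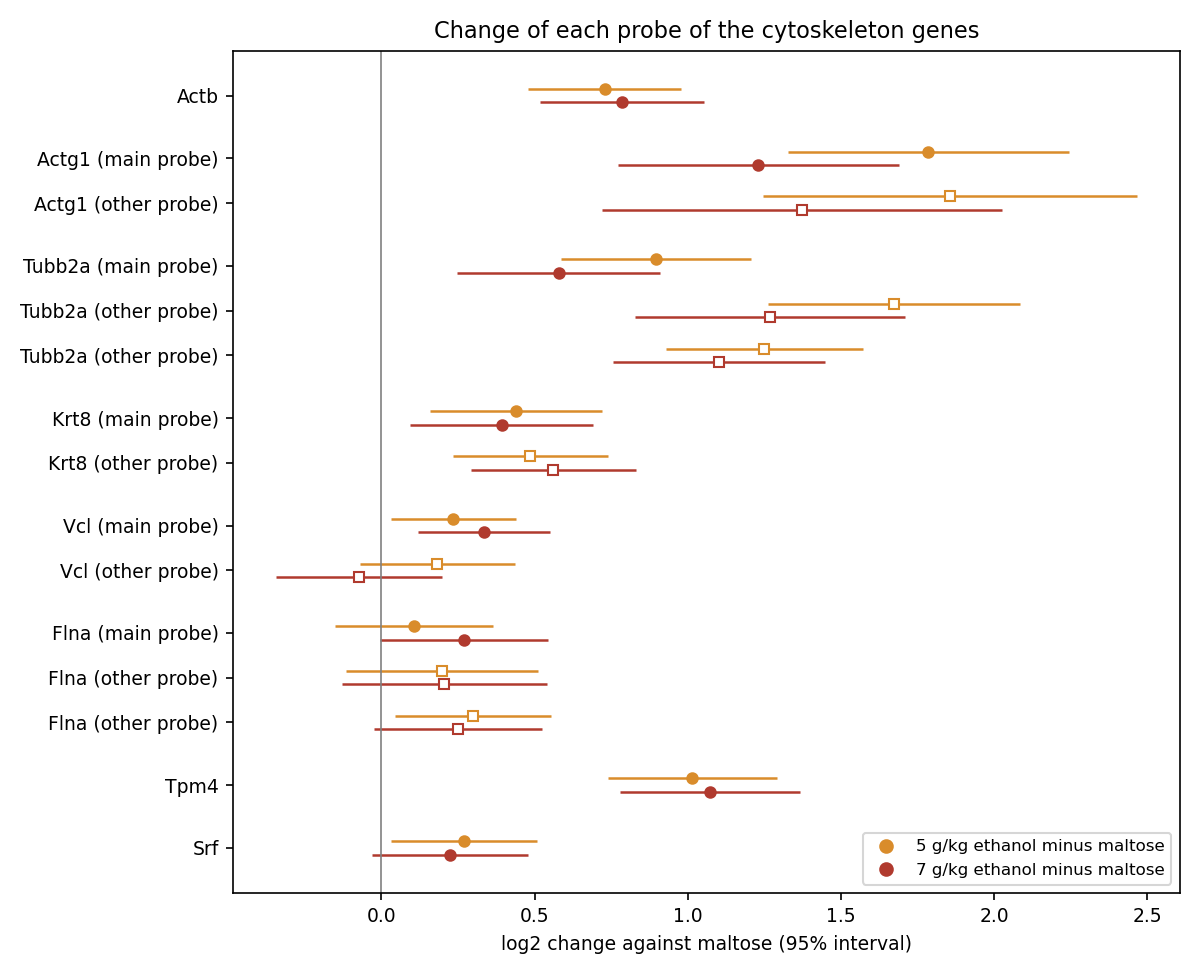
Log2 change against maltose (horizontal axis, with 95% intervals) for every tested probe of the 8 genes (rows), at 5 g/kg and at 7 g/kg ethanol. Filled circles are the probes used for the genes and open squares the others. All probes of Actb, Actg1, Tubb2a and Tpm4 lie right of 0 with their whole interval, as do those of Krt8, which did not pass on its brighter probe.

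Tubb2a, a beta-tubulin gene, rose at both doses on each of its 3 probes. On the brightest, the log2 ratios were −0.08, −0.24, −0.06 and −0.33 at 5 g/kg, with −0.14, −0.71 and −0.63 at 7 g/kg, against −1.17, −0.82 and −1.24 in maltose livers. The 5 g/kg livers stood clear of maltose, and 2 of the 3 livers at 7 g/kg came within 0.2 of the highest maltose liver. The change was 1.86-fold at 5 g/kg (log2 0.90, SE 0.145, adjusted p = 0.00301) and 1.49-fold at 7 g/kg (log2 0.58, SE 0.155, adjusted p = 0.0304). The call at 7 g/kg was lost without maltose liver 1 (0.53, adjusted p = 0.115), without maltose liver 3 (0.50, adjusted p = 0.124) or without 7 g/kg liver 1 (0.40, adjusted p = 0.125). The dimmer probes gave larger changes, 3.19-fold and 2.38-fold at 5 g/kg and 2.41-fold and 2.15-fold at 7 g/kg, all with adjusted p of 0.00114 or less over all probes.

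Tuba1a, an alpha-tubulin gene, could not be judged. Its Cy5 intensity was 58.5 to 66 units at 5 g/kg and 63.5 to 73 at 7 g/kg, against 49 to 75 in maltose livers, and its probe stood well above background on 0, 1 and 1 of these arrays. Other tubulins carried measurable signal. Of 14 other tubulin genes tested, 3 rose at 5 g/kg and 4 at 7 g/kg, and none fell. The alpha-tubulins Tuba1b (0.95 and 0.61), Tuba1c (1.03 and 0.72) and Tuba3a (0.96 and 0.83) rose at both doses, and the beta-tubulin Tubb6 rose at 7 g/kg (0.71, adjusted p = 0.00521) and stood at 0.48 at 5 g/kg (adjusted p = 0.0596). Some of these alpha-tubulin probes may also read related genes, which was not checked, although the Tuba1a probe stayed dim. The median of the 14 genes was 0.40 at 5 g/kg and 0.12 at 7 g/kg.

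By root mean square distance of centred log2 ratios over the arrays, the genes most like Tubb2a among all named non-members were Sgk1 (0.12), Tuba1b (0.13) and Tuba1c (0.14), where the median gene lay at 0.45. Tuba1b and Sgk1 were compared over 10 arrays and Tuba1c over 9. Of 21 microtubule regulators, Kif5b, the heavy chain gene of conventional kinesin, rose at 5 g/kg (0.45, adjusted p = 0.0444), and Kif5b (0.64), Mapre1 (0.55) and Map4 (0.50), of which Mapre1 and Map4 encode microtubule-binding proteins, rose at 7 g/kg. None of the 21 fell against maltose, and Map1lc3a, which encodes a light chain that binds microtubules and autophagosomes, was lower at 7 than at 5 g/kg (−0.59, adjusted p = 0.0181).

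Krt8, the type II keratin of hepatocytes, did not pass on its brighter probe. Its log2 ratios were 0.03, −0.01, 0.06 and −0.44 at 5 g/kg, with −0.01, −0.15 and −0.24 at 7 g/kg, against −0.47, −0.40 and −0.71 in maltose livers. At 5 g/kg 1 liver lay among the maltose livers and the other 3 lay above them. The differences were 0.44 (interval 0.16 to 0.72, adjusted p = 0.0853) and 0.39 (interval 0.09 to 0.69, adjusted p = 0.108). The second Krt8 probe gave 0.49 at 5 g/kg (adjusted p = 0.0321) and 0.56 at 7 g/kg (adjusted p = 0.0105) and passed at both, so the call rests on the choice of probe while the direction does not.

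Krt18, the type I partner of Krt8, had 1 probe. With its outlier-marked spots kept, the log2 ratios were 0.05, −0.20, 0.02 and −0.58 at 5 g/kg, with −0.20, 0.04 and −0.24 at 7 g/kg, against −0.12, −0.52 and −0.45 in maltose livers. The groups overlapped, and the differences of 0.19 (interval −0.14 to 0.52, adjusted p = 0.632) and 0.23 (interval −0.12 to 0.58, adjusted p = 0.511) did not pass. The same liver at 5 g/kg was the lowest of its group for Krt8 and Krt18. Of 14 other genes of keratins, other intermediate filaments, plakins and desmosomes, 1 rose at 5 g/kg, and 2 rose and 1 fell at 7 g/kg. The plakin genes Eppk1 (0.70 and 1.18), whose product binds keratin, and Plec (0.52 at 7 g/kg) were those that rose, and Krt23 fell by 1.35 at 7 g/kg (adjusted p = 0.00189).

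**Figure D4:**
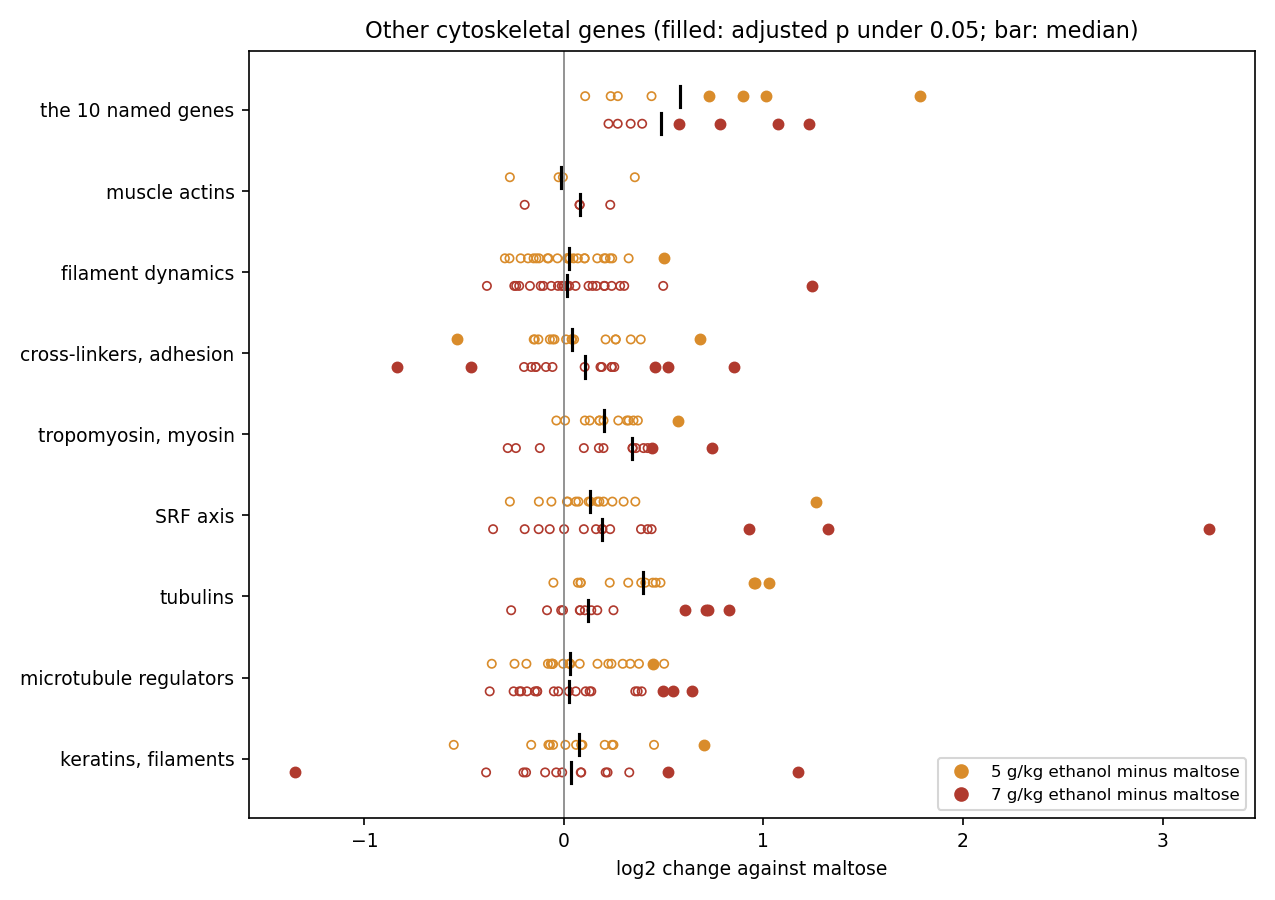
Log2 change against maltose (horizontal axis) of the 8 tested genes (top row) and of other cytoskeletal genes by list (rows, members left out), at 5 g/kg and at 7 g/kg ethanol. Each point is a gene, filled where adjusted p is under 0.05, and bars are medians. The 8 genes have medians of 0.58 and 0.49, and filament dynamics and microtubule regulators lie near 0 at both doses.

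Between the ethanol doses no member was called different, which with so few arrays does not show that the doses are alike. Of the 8 genes 0 passed for 7 minus 5 g/kg by limma, where 1.57% of all genes did (0.662% higher and 0.907% lower), and 2 had an unadjusted p under 0.05. These were Actg1 (−0.55, interval −1.06 to −0.05, adjusted p = 0.402) and Tubb2a (−0.32, interval −0.63 to −0.01, adjusted p = 0.45), lower at 7 g/kg. The Actg1 difference was −0.21 without 7 g/kg liver 1, −0.29 without 5 g/kg liver 3, −0.09 with slide as a block, −0.96 with the replicate block and 0.01 on the 1 slide with both doses. That of Tubb2a was −0.49 without 7 g/kg liver 1 and −0.21 without 7 g/kg liver 2. For Actb the difference was 0.05 (interval −0.19 to 0.30) and for Tpm4 0.06 (interval −0.22 to 0.33). The arrays of the doses overlapped for all 8 genes, while 4.87% of all genes were separated with 7 g/kg higher and 6.13% with 7 g/kg lower.

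Because Actb often serves as a reference for normalisation, it was set beside 14 other such genes. Over the 10 arrays the SD of the Actb log2 ratio was 0.39, the second highest of the 15 after Tfrc (0.45), the transferrin receptor gene. The other 14 had a median SD of 0.16, with Rplp0, a ribosomal protein gene, and Pgk1, a glycolytic enzyme gene, at 0.09 each. Apart from Actb, Tfrc fell at 5 g/kg by 0.66 and at 7 g/kg by 1.00, and Gapdh, another glycolytic enzyme gene, rose by 0.47 at 7 g/kg (adjusted p = 0.0255). The remaining 12 did not pass at either dose.

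Measured relative to each of these 14 genes in turn, Actb was higher in ethanol than in maltose livers in all cases. This follows from Actb having the largest rise among these genes. All 14 comparisons use the same Actb probe, so they add no separate evidence of its rise. The relative change was 0.43 to 1.38 at 5 g/kg (median 0.75) and 0.31 to 1.79 at 7 g/kg (median 0.75). When each array was instead scaled to its own Actb value, the median of all genes moved to −0.73 at 5 g/kg and −0.77 at 7 g/kg. With that scaling 24685 genes were called lower and 97 higher at 5 g/kg, and 24348 lower and 210 higher at 7 g/kg, calls that all rest on the same Actb values. The genes with the pattern most like Actb over the arrays were Lrrc58 (distance 0.08), Atp6v1g1 (0.09) and Stra6l (0.09), where the median gene lay at 0.40.

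**Figure D5:**
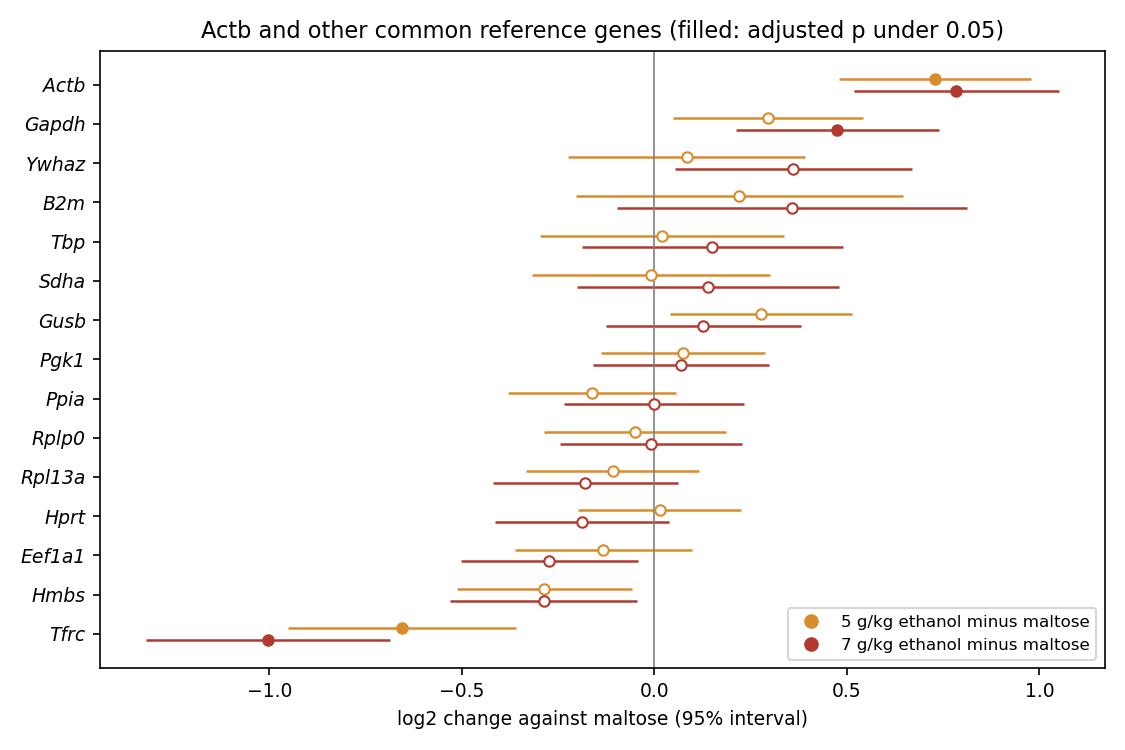
Log2 change against maltose (horizontal axis, with 95% intervals) of Actb and 14 other common reference genes (rows), at 5 g/kg and at 7 g/kg ethanol, filled where adjusted p is under 0.05. Actb is the highest row at both doses, Tfrc is the lowest, and all others except Gapdh at 7 g/kg lie within 0.4 of 0.

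Cytoskeletal genes are also expressed by the other cells of the liver, whose markers were measured in the same arrays. List means below are over the markers with a value well above background on all 10 arrays. Of 10 endothelial markers tested, 3 rose at 5 g/kg and 4 at 7 g/kg, led by Lyve1 of the sinusoidal endothelium (1.29 and 1.72). None of the 10 fell, but their median change was 0.36 at 5 g/kg and 0.22 at 7 g/kg, with lowest values of −0.02 and −0.28. The mean log2 ratio of 8 endothelial markers ran from −0.15 to −0.05 at 5 g/kg and from −0.17 to −0.02 at 7 g/kg, against −0.57 to −0.35 in maltose livers. Of 10 stellate cell and fibroblast markers, 2 rose at 5 g/kg (Hgf and Dcn) and 1 at 7 g/kg (Hgf), and the means of 7 ran from 0.10 to 0.21 and from 0.05 to 0.07, against −0.31 to −0.05 in maltose livers. Of 7 smooth muscle markers, muscle actins among them, none passed at 5 g/kg and 1 rose at 7 g/kg, with means of −0.13 to 0.03 and 0.05 to 0.07, against −0.14 in all 3 maltose livers.

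The neutrophil marker S100a8 stood well above background on no maltose array and is left out of the counts. Of 5 other neutrophil markers tested, none passed at 5 g/kg and S100a9 rose at 7 g/kg, and the means of 4 ran from −0.16 to 0.19 and from 0.07 to 0.21, against −0.33 to −0.15 in maltose livers. Of 4 erythroid markers none passed at 5 g/kg and 1 rose at 7 g/kg, and the means of 2 ran from −0.61 to −0.03 and from −0.09 to 0.28, against −0.67 to −0.23. Of 8 Kupffer cell markers none passed at either dose, with means of −0.27 to −0.14 and −0.42 to −0.07, against −0.31 to −0.15. Of 9 lymphocyte markers 0 and 1 rose, and the means of 8 ran from −0.15 to 0.07 and from −0.15 to 0.12, against −0.26 to −0.08. Of 8 cholangiocyte markers, which include the duct keratins Krt7 and Krt19, 1 fell at 5 g/kg and none passed at 7 g/kg, and the means of 7 ran from −0.02 to 0.10 and from 0.01 to 0.25, against −0.04 to 0.03. Of 8 hepatocyte markers none passed at 5 g/kg and 2 rose at 7 g/kg, and the means of 7 ran from 0.56 to 0.81 and from 0.42 to 0.76, against 0.13 to 0.54 in maltose livers. Each marker on the array was well above background on at least 1 array. Endothelial, stellate and smooth muscle means thus lay above maltose at both doses. For smooth muscle at 5 g/kg the margin was narrow (lowest −0.125, against a highest maltose mean of −0.141). Hepatocyte means lay above maltose at 5 g/kg, and neutrophil and erythroid means at 7 g/kg. The list means of other tubulins, tropomyosins and myosins, the SRF axis and keratins also lay above maltose at both doses, and no list lay below. Actb, Actg1, Tubb2a, Tpm4 and Vcl were separated in the same way. The means of muscle actins, filament dynamics, cross-linkers and adhesion, and microtubule regulators overlapped maltose at both doses. Some lists share genes, such as Tagln and Acta2 in smooth muscle and the SRF axis, and Des in stellate cells and keratins. Their means may thus not be independent. The part of these cell types in the results was not tested.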

How the data were processed

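Per the labels' protocols, total RNA of liver was column purified, converted to labelled cDNA by an indirect method and hybridised against 1 common reference RNA. The scanner software (Agilent Feature Extraction) gave, per the file headers, the median intensity of each spot and its local background. The deposited processed intensity was background subtracted and dye normalized by that software, per the file headers, and the deposited log10 ratio is its red over green ratio. The deposited series table holds log2 ratios, read from its slope on the log10 ratio, and the steps between are not given in the sources used here.

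Median intensities were corrected with normexp (offset 50) and loess within arrays in limma 3.58.1 (R 4.3.3). Control spots and outlier-marked spots (2.42% to 5.83% per array) were left out, and spots of a probe averaged. Probes well above background in Cy5 on under 3 arrays, and genes with under 2 values in a group, were dropped. The probe with the highest mean signal stood for a gene. Of 41174 probes, 24375 (59.2%) had a symbol. 1 fit of 3 group means over all 10 arrays tested 26124 genes, with Benjamini-Hochberg adjustment and a threshold of 0.05, two-sided. Data were simulated for 7 g/kg minus maltose over 26124 genes, with 100 genes changed at each size and independent normal noise. There 27% of log2 changes of 0.5 and 86% of changes of 1 were recovered. In the real comparison 9.01% of genes passed, so recovery there may differ.

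The members and gene lists were chosen with earlier results of these data known. All 10 members are named whatever their result, and of other lists up to 3 passing genes per comparison with the smallest p. Lists are given by counts and medians. The genes most like a member are the 3 with a symbol at the smallest distance, compared on at least 8 arrays (7 for Actg1). Alternatives changed the background correction, normalization, channel, source of values, filter, outlier marks, probe choice, moderation and array weights, added slide or replicate number as a block, and left out each array. Scaling to Actb, the fit over all probes and the choice of genes in list means were added after seeing the data. The same replicate number in different groups did not pair the arrays (correlation of residuals over genes −0.21 to 0.20 in 9 pairs), so that block is only an alternative. Arrays of different groups on the same slide had a median correlation of 0.18 (8 pairs), against −0.03 on different slides (25 pairs). The main fit does not model the slide.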

Additional observations from a re-analysis of the deposited data

Results flagged for a closer look

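Krt8 at 5 g/kg had 1 liver far from the others of its group. Replicate 4 stood at −0.44, while the other 3 stood between −0.01 and 0.06, and the gap to its nearest neighbour took up 0.862 of the group's range, above Dixon's 95% critical value for 4 samples. The gap was computed for 7 member genes and was past that value for Krt8 alone; chance gives such a gap in about 5% of groups for each gene looked at. The same liver was the lowest of the 4 for 5 of the 7 member genes with all 4 values, Actb, Tubb2a, Krt8, Vcl and Tpm4. Without it, the Krt8 change at 5 g/kg was 0.56 and passed (adjusted p = 0.0138). Why it stands apart was not tested.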

How the results depend on the processing

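The 4 members that passed at 5 g/kg became 4 to 5 when each array was left out in turn, and the 4 at 7 g/kg became 3 to 5. For 7 minus 5 g/kg the number stayed at 0 under every alternative run. With Cy5 alone and no reference channel, 1 member passed at 5 g/kg and 2 at 7 g/kg, although the changes of Actb (0.69), Tubb2a (0.82) and Tpm4 (0.99) at 5 g/kg and of Actg1 (0.99, adjusted p = 0.113) and Tubb2a (0.57, adjusted p = 0.302) at 7 g/kg, which did not pass there, kept their direction, and 120, 595 and 47 of all genes passed in the 3 comparisons, against 992, 2355 and 410. The cause was not tested. With the replicate block, 5 members passed at 5 g/kg, 4 at 7 g/kg and 0 between the doses, and Krt8 at 5 g/kg reached 0.56 (adjusted p = 0.019), a fit in which replicate 4 has no partner. The block changed no other member's call. With slide as a block 4, 4 and 0 members passed, and 909, 1752 and 341 of all genes. Tubb2a at 7 g/kg, near the threshold, also did not pass with a normexp offset of 16 (0.57), with the scanner ratio (0.59) or with the deposited table (0.59). Krt8 passed with the mean of its probes (0.46 at 5 g/kg, 0.48 at 7 g/kg) and without 5 g/kg replicate 4 (0.39 at 7 g/kg), and Vcl at 7 g/kg passed when probes had to be detected on all arrays (0.33, adjusted p = 0.0435). Over all genes at 5 g/kg, 520 passed with the scanner ratio, 584 with the deposited table, and 468, 638 and 505 without maltose replicates 1, 2 and 3. At 7 g/kg 1504 passed without maltose replicate 1. For 7 minus 5 g/kg 114 and 138 passed with the scanner ratio and the deposited table, 221 and 232 without 7 g/kg replicates 1 and 2, and 268 and 229 without 5 g/kg replicates 1 and 2.

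Relative to Actb, which by construction takes its rise off every gene, 1 member was higher and 3 lower at 5 g/kg, and 0 higher and 4 lower at 7 g/kg. Directions turned at 5 g/kg for Krt8 (−0.29), Vcl (−0.49), Flna (−0.62) and Srf (−0.46), and at 7 g/kg for Tubb2a (−0.21), Krt8 (−0.39), Vcl (−0.45), Flna (−0.51) and Srf (−0.56). Dim signal limits Tuba1a, and outlier marks limit Krt18 and Actg1.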

Other observations

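By the same distance over the arrays, the genes most like Tpm4 were Serinc3 (distance 0.11, with changes of 1.08 at 5 g/kg and 1.16 at 7 g/kg), Pnp, a purine salvage enzyme gene (0.12, with changes of 0.92 and 0.90), and Ethe1, a mitochondrial sulfur dioxygenase gene (0.13, with changes of 0.77 and 0.90), where the median gene lay at 0.52. Over 7 arrays, those most like Actg1 were the hepatic antimicrobial peptide gene Leap2 (0.25), the autophagy gene Vmp1 (0.28) and the antigen peptide transporter gene Tap1 (0.31), where the median gene lay at 0.83. Krt8 lay closest to Piga (0.08), P4hb (0.09) and Tigar (0.09), of which P4hb encodes a protein disulfide isomerase of the endoplasmic reticulum, and none of these 3 passed at either dose.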
